A study of Arabidopsis thaliana with 15 samples.

Results

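YUC4 (locus AT5G11320, probe set 250389_at) and SHI (locus AT5G66350, probe set 247093_at) are genes of auxin synthesis and of its control, and each has 1 probe set of its own on the array. They are 2 of 13350 genes of Arabidopsis thaliana that have a probe set of their own in the probe table used here. They were picked with their levels in these groups known, because YUC4 went against the trend of other auxin genes, so their levels and differences are given as a description without a test. The same holds for the shares of tested probe sets that lay further in a direction, which are no measure of significance.

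The study profiled cell populations of the shoot apex of 24-day-old plants on 15 Affymetrix arrays of total RNA. CLV3p, CLV3n and FILp cells had 3 arrays each and WUSp cells had 2, and by the design text CLV3n lacks the cell type of CLV3p. Another pair of groups, Protoplast Induced and Uninduced, had 2 arrays each, and the labels do not say what was induced. The genotype, strain, reporter and its promoter, and the way each population was separated are not given in the sources used here, nor is it said whether replicates came from separate plants or sorts. Differences between replicates may therefore be technical.

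Auxin is made from tryptophan in a short pathway. Aminotransferases of the TAA1/TAR family form indole-3-pyruvic acid, and flavin-containing monooxygenases of the YUCCA family, such as YUC4, turn it into indole-3-acetic acid, the main auxin. SHI (SHORT INTERNODES) belongs to the SHI/STY family of plant zinc finger transcription factors, and its relative STY1 is known to bind the YUC4 promoter and activate the gene. In the shoot apex auxin is best known for starting new organs on the flanks of the meristem, whose stem cells express the peptide gene CLV3.

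The arrays matched their labels as far as the probe table allowed. The geometric mean signal of CLV3 was 876 in CLV3p, 9.13 in CLV3n, 3.75 in FILp and 66.4 in WUSp. YAB5, a YABBY gene of the outer side of young organs like FIL, had 449.8 in FILp and 6.10 in CLV3p. WUS and FIL themselves have no probe set of their own in that table, so WUSp cells could not be checked by WUS. Spearman correlations over all probe sets were 0.952 to 0.982 within groups and 0.883 to 0.964 between groups. The spike control bioC, added with the hybridisation, divided the arrays into 2 sets. CLV3n 3, CLV3p 3 and the 3 FILp arrays had signals of 354 to 445, and the others had 862 to 1409. CLV3n 1 (log2 4.20) and CLV3p 1 (3.78) had the highest actin 3'/5' ratios, a measure that rises as RNA or labelled product gets shorter.

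YUC4 was highest in CLV3p, the population named for stem cells. Its signals there were 789, 1173 and 804. In CLV3n they were 533, 437 and 669.8. All CLV3p arrays lay above all CLV3n arrays, but the nearest arrays of the 2 groups were CLV3p 1 and CLV3n 3, at 789 and 669.8. In FILp, the population named for young organs, YUC4 had 112, 93.0 and 119.8, below every other array of the series. WUSp had 167 and 205, which is above FILp and below CLV3p and CLV3n without overlap. Protoplast Induced had 312 and 211 and Uninduced had 231 and 170.2, and these arrays overlapped.

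As geometric means the order of YUC4 was CLV3p (906), CLV3n (538), Protoplast Induced (257), Uninduced (198), WUSp (185) and FILp (108). The SD on the log2 scale was 0.32, 0.31, 0.40, 0.31, 0.21 and 0.19 in that order, over 3, 3, 2, 2, 2 and 3 arrays. Neighbours in this order did not overlap, except Protoplast Induced with Uninduced and Uninduced with WUSp, which did not differ beyond their spread. The span from FILp to CLV3p was 8.42-fold. YUC4 lay above the 40th percentile of its array on all 15 arrays, so no value rests on a signal near the floor of 19.4, the 20th percentile of all signals.

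SHI was also highest in CLV3p, where its signals were 216, 225 and 207, the tightest of any group. FILp had 139.6, 159 and 171, all below CLV3p. CLV3n was spread widely, with 92.9, 128.3 and 189.8, and it overlapped FILp. Both WUSp arrays were the lowest of the series for SHI, at 26.8 and 53.1. Protoplast Induced had 103 and 87.6 and Uninduced had 139 and 122, without overlap.

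The order of SHI by geometric mean was CLV3p (216), FILp (156), CLV3n (131), Uninduced (130.2), Protoplast Induced (95.2) and WUSp (37.7). The SD on the log2 scale was 0.06, 0.15, 0.52, 0.13, 0.17 and 0.70 in that order. FILp with CLV3n, and CLV3n with Uninduced, overlapped and did not differ beyond their spread. CLV3p and FILp, Uninduced and Protoplast Induced, and Protoplast Induced and WUSp did not overlap. The span from WUSp to CLV3p was 5.72-fold. SHI lay below the 40th percentile of its array on both WUSp arrays, on CLV3n 1 and on Protoplast Induced 2.

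**Figure D1:**
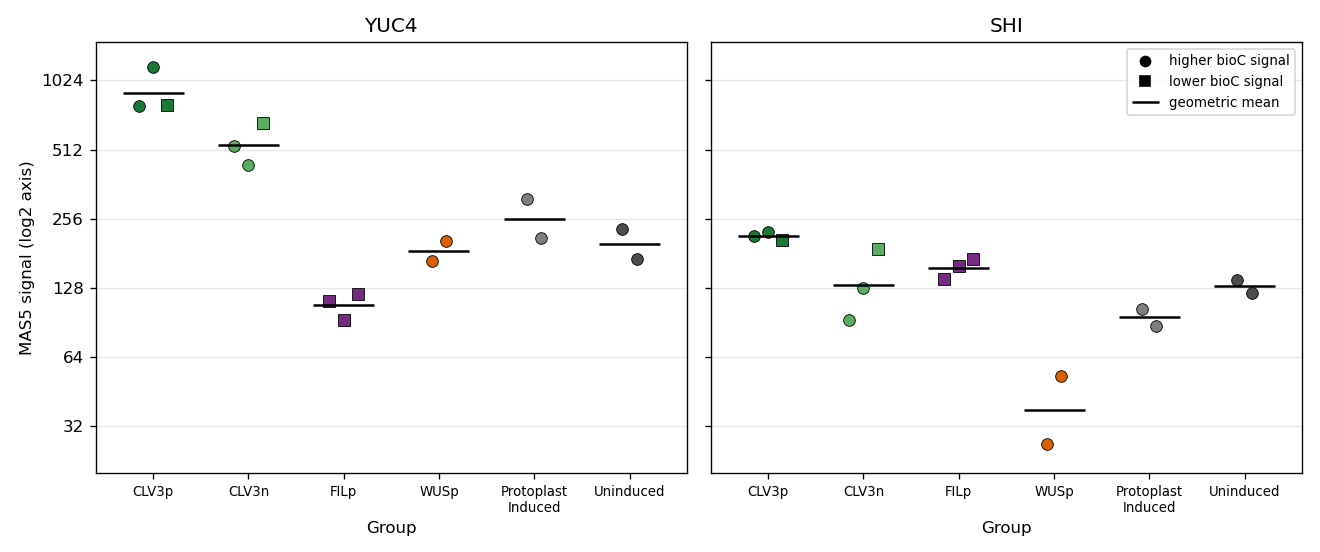
MAS5 signal (log2 axis) of YUC4 on the left and SHI on the right on each of the 15 arrays, by group. Points are arrays, squares are the arrays with the lower bioC signal and circles those with the higher, and bars are geometric means; YUC4 is lowest on the 3 FILp arrays and SHI on the 2 WUSp arrays.

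The members shared their highest group and differed in their lowest. YUC4 was lowest in FILp, where SHI was second in order, and SHI was lowest in WUSp. Across the 15 arrays the Pearson correlation of YUC4 with SHI was 0.41 on log2 values raised to the floor, and across the 11 arrays of CLV3p, CLV3n, FILp and WUSp it was also 0.41. Among 8295 candidate probe sets SHI ranked 1781st by likeness to YUC4 and YUC4 ranked 1510th by likeness to SHI. These points share group membership and array scaling, and the correlation is a description only.

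Between CLV3p and CLV3n both members were higher in CLV3p by nearly the same factor. YUC4 was 1.68-fold higher, a log2 difference of 0.75 ± 0.22 (SE of the fit, n = 3 and 3), and 5.06% of the 15052 tested probe sets lay further in that direction. SHI was 1.64-fold higher, with 0.72 ± 0.31, and 5.65% lay further. The size depended on the arrays used. Within the set of higher bioC signal, with 2 arrays a group, YUC4 had 0.99 and SHI had 1.01, whereas between CLV3p 3 and CLV3n 3, the single pair of the lower set, they had 0.26 and 0.12. Without CLV3n 1 SHI had 0.47, and without both CLV3n 1 and CLV3p 1 YUC4 had 0.84 and SHI again had 0.47. Several markers of other cells were lower in CLV3p than in CLV3n. The summed signals were 21.4 to 84.1 against 275 to 339.9 for YAB3 and YAB5 (outer side of young organs, 2 of 3), 79.7 to 123 against 465 to 519 for PTL and LAS (organ boundary, 2 of 5), and 1296 to 1804 against 3625 to 4422 for RCA, PRK and LHCB4.1 (photosynthesis, 3 of 3). Other markers were not lower. PHV (upper organ side, 1 of 3) had 1924 to 2374 in CLV3p against 1193 to 1249 in CLV3n. CR4 (epidermis, 1 of 4) had 557 to 722 against 437 to 476. UFO (flower, 1 of 6) had 1004 to 1484 against 767 to 1474, with overlapping arrays. The part of these markers in the differences of YUC4 and SHI was not tested.

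CLV3p exceeded FILp clearly for YUC4 and slightly for SHI. YUC4 was 8.42-fold higher in CLV3p, a log2 difference of 3.07 ± 0.22 (n = 3 and 3), which 71 of 15052 tested probe sets exceeded (0.472%). Against the only CLV3p array of the lower bioC set it was 2.90. SHI was 1.38-fold higher, with 0.47 ± 0.31, and 18.6% of tested probe sets lay further in that direction. YAB3 and YAB5, the measured markers of the outer side of young organs (2 of 3), moved opposite to YUC4, with summed signals of 790.1 to 932 in FILp and 21.4 to 84.1 in CLV3p. Photosynthesis markers summed to 3259 to 5261 in FILp, above the 1296 to 1804 of CLV3p. UFO, an F-box gene of flower development and the measured flower marker (1 of 6), moved with YUC4, with 111 to 165 in FILp and 1004 to 1484 in CLV3p. PTL was lower in CLV3p (log2 difference -4.67 ± 0.40, or -4.04 with signals raised to the floor). LAS (-0.06 ± 0.29), CR4 (0.18 ± 0.17) and PHV (-0.05 ± 0.15) had overlapping arrays. Their part in the result was not tested, and in bulk samples fewer cells of a type and less RNA per cell cannot be told apart.

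In WUSp both members were lower than in CLV3p. YUC4 was 4.89-fold higher in CLV3p, a log2 difference of 2.29 ± 0.24 (n = 3 and 2), with 1.44% of tested probe sets further in that direction. SHI was 5.72-fold higher, with 2.51 ± 0.35, and 182 probe sets (1.21%) lay further. Within the higher bioC set the values were 2.38 and 2.55. The size for SHI varied with the WUSp array, at 2.02 without WUSp 1 and 3.01 without WUSp 2. CR4, an epidermal receptor kinase gene and the measured epidermis marker (1 of 4), was low on the same arrays, with 163 to 170.3 in WUSp against 557 to 722 in CLV3p. The photosynthesis markers went the other way, with summed signals of 5551 to 5952 in WUSp against 1296 to 1804 in CLV3p. So did UFO, with 1525 to 1790 in WUSp against 1004 to 1484 in CLV3p. PTL was lower in CLV3p (-1.60 ± 0.45, or -0.98 with signals raised to the floor) and LAS was higher (0.53 ± 0.33), without overlap. YAB3, YAB5 and PHV had overlapping arrays. The ubiquitin 3'/5' ratio was also lowest on the 2 WUSp arrays (log2 0.74 and 1.04, against 1.30 to 2.41 on CLV3p, CLV3n and FILp arrays). The part of these in the result was not tested.

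The remaining pairs of these populations separated YUC4 from SHI. YUC4 was 5.005-fold higher in CLV3n than in FILp (log2 difference of FILp from CLV3n -2.32 ± 0.22), while for SHI the same difference was 0.25 ± 0.31, with overlapping arrays. For SHI that difference was 0.0001 without CLV3n 1 and -0.28 within the lower bioC set, so it had no stable direction. Relative to CLV3n, WUSp was lower for YUC4 by 2.90-fold (-1.54 ± 0.24) and for SHI by 3.48-fold (-1.80 ± 0.35). WUSp and FILp went opposite ways. YUC4 was 1.72-fold higher in WUSp (0.78 ± 0.24) and SHI was 4.14-fold higher in FILp (WUSp minus FILp -2.05 ± 0.35). FILp and WUSp share no bioC set and are tied only through CLV3p and CLV3n, and with the set as a block in the fit their differences were 0.89 for YUC4 and -1.70 for SHI.

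Differences between Protoplast Induced and Uninduced were small for both genes. YUC4 had a log2 difference of 0.37 ± 0.24 (n = 2 and 2), higher in Protoplast Induced with overlapping arrays, and 17.2% of 13911 tested probe sets lay further in that direction. SHI had -0.45 ± 0.26, 1.37-fold higher in Uninduced, and 12.9% lay further. The photosynthesis markers RCA, PRK and LHCB4.1 (3 of 3) were lower beside SHI, with summed signals of 3934 to 4081 in Protoplast Induced and 5291 to 6752 in Uninduced. So were CR4 (407 to 457 against 571 to 579), YAB3 with YAB5 (215 to 266 against 331 to 385), PHV, a gene of the upper organ side (871 to 1100.4 against 1259 to 1437), and UFO (419.7 to 507 against 612 to 639). CLV3 (111 to 149 against 94.9 to 101.5) and PTL (350 to 433 against 318 to 339) were higher in Protoplast Induced. LAS, the other organ boundary marker, was lower (125 to 132.5 against 184 to 195). The actin 3'/5' ratio was higher in Protoplast Induced (log2 3.36 and 3.43) than in Uninduced (2.75 and 2.44). Whether these bear on SHI was not tested.

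**Figure D2:**
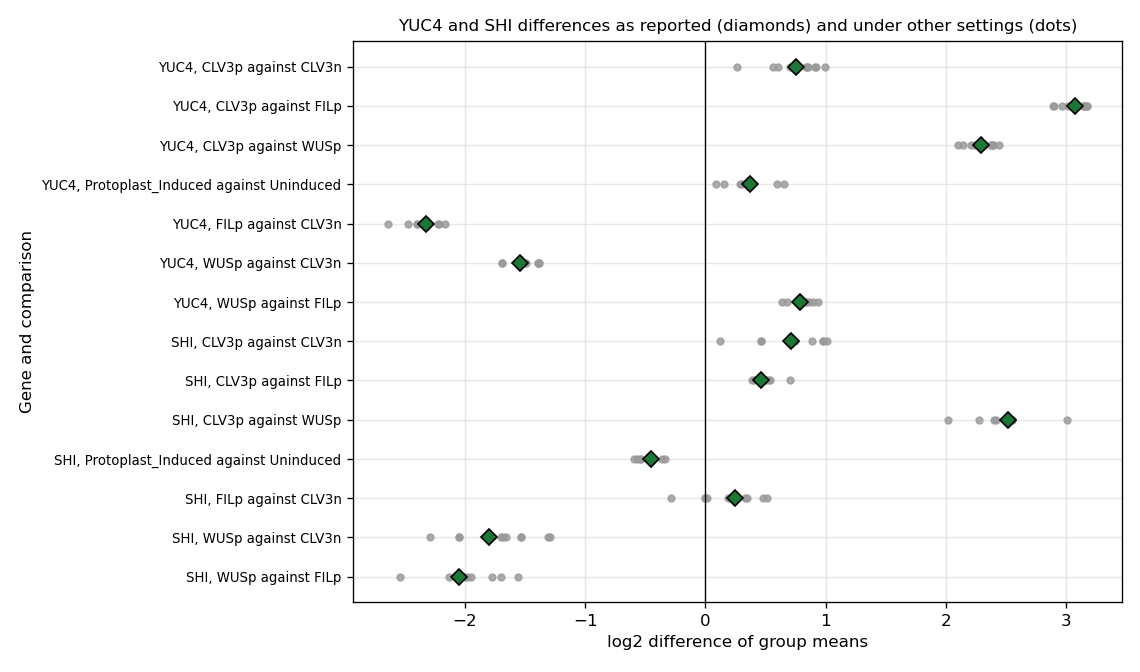
Log2 difference of group means for YUC4 and SHI in each of 7 comparisons, first group minus second. Diamonds are the values as reported and grey dots the values under other normalizations, with arrays left out or within a set of bioC signal; the difference of SHI between FILp and CLV3n is the only one with dots on both sides of 0.

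The members were set against the other auxin genes of a list of 117 genes grouped by role. Of these, 20 have a probe set of their own, YUC4 and SHI included, which left 18 others. They comprise 3 other YUCCA genes (4 of 11 with YUC4), 6 genes of auxin conjugation and release (of 11), 2 kinases of auxin transport (of 4) and 7 Aux/IAA repressors (of 29). None of the 3 TAA1/TAR genes, 15 transport genes, 6 receptors or 14 response factors has one, and neither has any SHI/STY gene besides SHI (1 of 10). In each fit 12 of the 18 passed the filter on low signals. YUC6, YUC11, GH3.1, IAA31 and IAA33 passed in neither, GH3.9 passed only in the protoplast pair and IAA34 only in the fit of the other 11 arrays. A gene that passed only through the group where it is high had to differ, so the counts are a description. GH3.3, GH3.17, PID2, IAA20, IAA29 and IAA30 lay under the 40th percentile on every CLV3p array. They passed in the fit of the other 11 arrays through other groups alone, so their lower levels in CLV3p were partly fixed by the filter. The trend of the listed auxin genes was also known when YUC4 and SHI were picked. Calls of single genes therefore restate it and are no independent evidence.

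Where YUC4 and SHI were higher in CLV3p than in CLV3n, 8 of the 12 tested auxin genes were lower and none was higher, by limma with adjustment over all tested probe sets at a threshold of 0.05 (at an unadjusted p under 0.05, 0 of the 12 were higher). Over all tested probe sets 8.95% were lower and 4.88% higher. Most of those 8 genes passed the filter through other groups alone, as named above. With no filter, IAA31 passed as higher, by 2.71 (limma, adjusted p = 0.0209), or 1.51 with signals raised to the floor. Its geometric mean was 55.4 in CLV3p, its highest group as for YUC4 and SHI, and 8.46 in CLV3n, under the floor. The median log2 difference was -1.61 over the 12 genes and -1.18 over all 18, against 0.02 over all tested probe sets. Centring the arrays on their medians moved that last median by 0.17 and the share of calls that were higher from 35.3% to 59.8% over all probe sets, and it left the auxin count at 8. The markers YAB3, YAB5, PTL, LAS, RCA, PRK and LHCB4.1 were lower in CLV3p beside these genes, with log2 differences from -4.56 ± 0.65 for YAB5 to -1.09 ± 0.17 for RCA. The CLV3p means of YAB5 and PTL lie under the floor, and with signals raised to it they had -2.88 and -3.81. PHV was higher in CLV3p (0.78 ± 0.15), while CR4 (0.45 ± 0.17) and UFO (0.32 ± 0.25) did not pass. The part of these markers in the auxin counts was not tested.

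Against FILp the contrast with YUC4 was wider, and 9 of the 12 were lower in CLV3p and none higher by limma (1 higher at an unadjusted p under 0.05), beside 12.2% of tested probe sets lower and 10.5% higher. The medians were -2.005 over the 12 genes, -1.01 over the 18 and 0.03 over all tested probe sets. Against WUSp 4 of the 12 were lower and 1 was higher, beside 12.4% lower and 11.7% higher, with medians of -1.03, -0.55 and 0.04. That count of 4 fell to 2 when CLV3p 3, WUSp 1 or WUSp 2 was left out. These comparisons share the CLV3p arrays, so they are not separate evidence of a trend.

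The nearest relative with a tested probe set, YUC2, which encodes another YUCCA monooxygenase, did not share the YUC4 pattern. Its geometric mean signals were 116 in CLV3p, 238 in CLV3n, 139 in FILp and 82.8 in WUSp. Its log2 difference of -1.04 ± 0.34 between CLV3p and CLV3n lay at the edge of the threshold. It did not pass in the fit as reported (limma, adjusted p = 0.0546), and it passed with the bioC set as a block (0.0385), with the replicate block (0.0343), with floored signals (0.0486), in 1 fit of all 15 arrays (0.0293), and without CLV3p 1, FILp 3, WUSp 1 or WUSp 2 (0.0283 to 0.0435). Neither -0.26 ± 0.34 against FILp nor 0.48 ± 0.38 against WUSp passed. The other YUCCA genes with a probe set were dim, with group means of 3.23 to 36.5 for YUC6 and at most 44.9 for YUC11.

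Of the 4 tested genes listed under auxin conjugation and release, the 3 GH3 genes were lower in CLV3p than in CLV3n and in FILp. Of these, 2 were lower than in WUSp. GH3.3, GH3.5 and GH3.17 encode enzymes that join auxin to amino acids. GH3.3 had signals of 37.4 in CLV3p, 1641 in CLV3n, 2145 in FILp and 389.7 in WUSp, and its log2 differences of CLV3p from them were -5.46 ± 0.39, -5.84 ± 0.39 and -3.38 ± 0.44. GH3.3 was thus lowest in the group where YUC4 was highest and highest in the group where YUC4 was lowest, and their correlation over the 15 arrays was -0.65. GH3.5 was lower in CLV3p in all 3 comparisons (-1.48 ± 0.24, -1.97 ± 0.24 and -0.89 ± 0.27), and the call against WUSp ended without CLV3p 1, CLV3p 3, WUSp 1 or WUSp 2 and with plain eBayes. GH3.17 was lower against CLV3n and FILp (-3.36 ± 0.55 and -4.08 ± 0.55, or -2.78 and -3.51 with signals raised to the floor) and had -1.45 ± 0.62 against WUSp, which passed only after quantile normalization or without CLV3p 1 among the settings tried, alone or with CLV3n 1. AT1G14130, the tested gene of this role outside the GH3 genes, passed in none of these comparisons as reported. Against FILp it went the way of YUC4, without overlap, at 0.55 ± 0.195 (limma, adjusted p = 0.0525). That difference passed with quantile normalization, centred arrays, the filter at the 60th percentile or 1 fit of all 15 arrays. It also passed without CLV3n 1 or CLV3n 3. Against CLV3n the gene had 0.12 ± 0.195 and against WUSp -0.455 ± 0.22.

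The kinase genes went opposite ways between CLV3p and WUSp. WAG2, an AGC kinase that directs PIN auxin transporters, had signals of 85.8 in CLV3p, 213 in CLV3n, 353 in FILp and 19.2 in WUSp. It was lower in CLV3p than in CLV3n and FILp (-1.31 ± 0.26 and -2.04 ± 0.26) and higher than in WUSp (2.16 ± 0.29, or 2.09 floored, since one WUSp array lies under the floor). WUSp was thus the lowest group of WAG2 as it was of SHI, and their correlation over the 15 arrays was 0.64. PID2, a related kinase gene, was lower in CLV3p in all 3 comparisons, with floored values of -1.67, -2.02 and -1.14 since its CLV3p mean of 6.95 lies under the floor. Its call against WUSp ended with floored signals and without CLV3p 1, CLV3p 3, WUSp 1 or WUSp 2, and its call against CLV3n ended without CLV3n 1 and CLV3p 1 together.

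Among the Aux/IAA genes, whose proteins repress auxin response, IAA20, IAA29 and IAA30 were lower in CLV3p than in CLV3n (floored -2.64 for IAA20, -1.75 ± 0.43 and -2.47 ± 0.38) and than in FILp (floored -3.57, -1.84 ± 0.43 and -2.36 ± 0.38). The call of IAA29 against CLV3n ended without CLV3n 1 or CLV3n 2. None of these 3 passed against WUSp as reported, where IAA30 had -1.17 ± 0.42. IAA30 passed with the bioC set as a block (-1.27), quantile normalization, floored signals, plain eBayes or 1 fit of all 15 arrays. IAA30 and IAA20 both passed without CLV3p 1, alone or with CLV3n 1. IAA18 had 0.13 ± 0.17 against CLV3n, which did not pass, and was lower than in FILp and WUSp by small to moderate amounts (-0.54 ± 0.17 and -1.29 ± 0.19). The call against FILp ended with the bioC set as a block, with centred arrays, with no filter and with plain eBayes. It also ended without CLV3p 1 (alone or with CLV3n 1), CLV3p 2, FILp 1 or FILp 3. IAA34 passed in none.

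**Figure D3:**
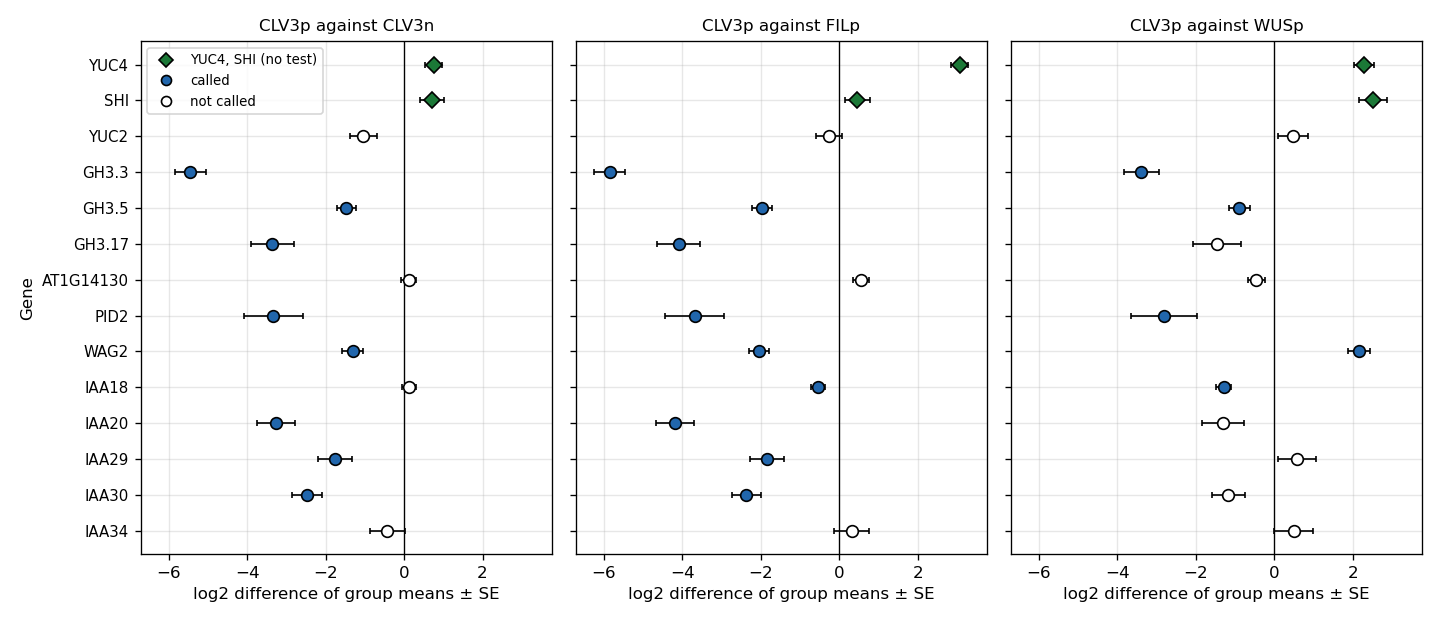
Log2 difference of group means ± SE, CLV3p minus the second group, for YUC4, SHI and the 12 other auxin genes tested in the fit of 11 arrays. Diamonds are YUC4 and SHI, which carry no test, filled circles passed the adjusted threshold of 0.05 and open circles did not; YUC4 and SHI lie right of 0 in each panel while most filled circles lie left of it.

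Between Protoplast Induced and Uninduced few auxin genes differed. None of the 12 tested was lower by limma (3 at an unadjusted p under 0.05) and 1 was higher, beside 11.4% of tested probe sets lower and 10.5% higher. That gene was AT1G14130, which had 651 in Protoplast Induced and 405 in Uninduced, with 0.68 ± 0.14 on the log2 scale (limma, adjusted p = 0.00624, and 0.0851 in 1 fit of all 15 arrays). The median was -0.02 over the 12 genes and 0.00158 over all tested probe sets. When arrays were centred, 1 auxin gene was lower and the share of calls that were higher went from 47.9% to 34.1% over all probe sets.

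**Figure D4:**
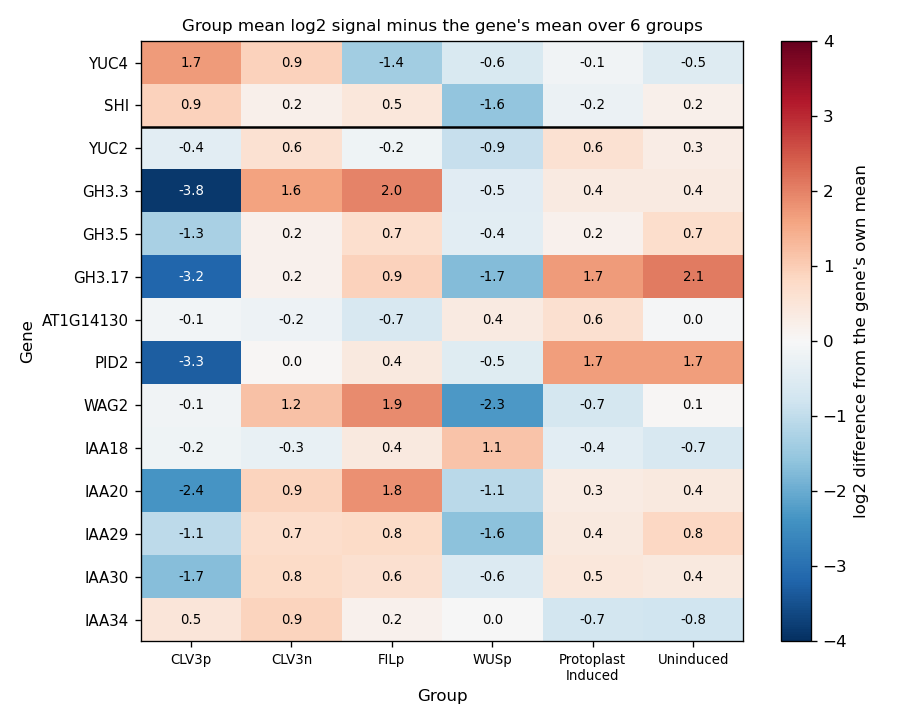
Group mean log2 signal of YUC4, SHI and the 12 other auxin genes tested in the fit of 11 arrays, each minus the gene's own mean over the 6 groups, as colour and number. YUC4 and SHI are the rows above the line, highest in CLV3p, where GH3.3, GH3.17 and PID2 are lowest.

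The genes whose pattern was most like YUC4 were found by Pearson correlation over the 15 arrays among 8295 tested probe sets of single genes. IQD27, which encodes a member of the IQ domain family, had 0.95, and AT3G27350, AT1G34220, AT5G07860 and AT1G35280 had 0.92 each. IQD27 had signals of 226 in CLV3p, 157 in CLV3n, 73.8 in FILp and 105 in WUSp, the order of YUC4 over a narrower range. AT1G35280 had 186 and 122 in CLV3p and CLV3n and 2.29 to 13.0 in the other groups, under the floor. Over the 11 arrays of CLV3p, CLV3n, FILp and WUSp 2 of the 5 remained among the 5 most alike.

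The genes most like SHI were AT1G16500 (0.95), AT3G11600 (0.94), AT2G02780 (0.92), AT5G02280 (0.92) and CR4 (0.92). AT1G16500 had signals of 502 in CLV3p, 336 in CLV3n, 307 in FILp and 36.9 in WUSp. AT3G11600 had 453, 205, 218 and 22.1 in these groups. All 5 had WUSp as their lowest group and CLV3p as their highest, as SHI did. Over the 11 arrays of CLV3p, CLV3n, FILp and WUSp 1 of the 5 remained among the 5 most alike. The points share groups and array scaling, and with 15 arrays in 6 groups many genes follow the group means.

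**Figure D5:**
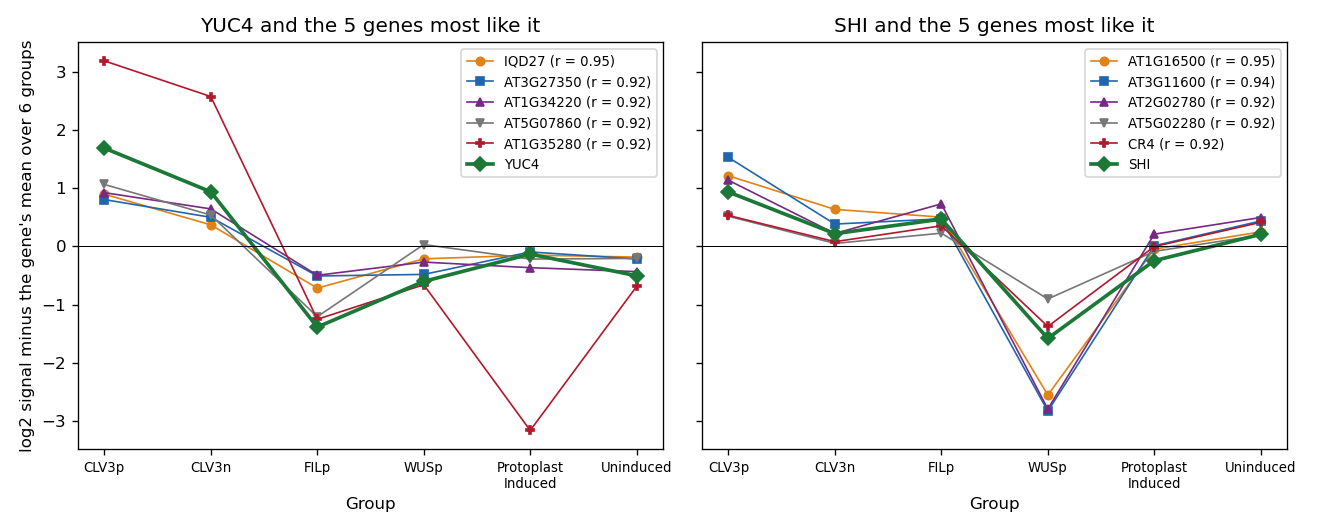
Group mean log2 signal minus the gene's mean over the 6 groups, without a floor, for YUC4 (left) and SHI (right) with the 5 genes of highest Pearson r to each over 15 arrays. The genes beside YUC4 are high in CLV3p and CLV3n, and those beside SHI drop in WUSp.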

How the data were processed

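Total RNA from 15 samples was prepared with an RNeasy kit, labelled with biotin and hybridised to 1-colour Affymetrix arrays, per the labels' protocols. The deposited intensity values are signals made by the authors with MAS5, per the submitters' processing notes, and they were scaled alike, since the trimmed mean of each array (2nd to 98th percentile) was 499.8. Precision is limited by the number of arrays. Genes were named from the probe table, which gives 1 gene for 13513 of 22810 probe sets, several for 503 and none for 8730; 13436 of the 13513 matched a RefSeq locus. The 64 control probe sets were left out.

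Signals were used as log2 without further normalization. Testing required a signal over the array's 40th percentile on 2 or more arrays of a fit. The fit of CLV3p, CLV3n, FILp and WUSp (11 arrays) then held 15052 probe sets and the protoplast fit (4 arrays) 13911. limma 3.58.1 in R 4.3.3 (lmFit, eBayes with trend and robust, two-sided, Benjamini-Hochberg over tested probe sets, threshold 0.05) gave differences, their SE and adjusted p-values, and was tested on simulated data. Floored values raise signals under the 20th percentile (19.5 over the 11 arrays) to it. Values of other auxin genes are given by role, for up to 4 a role by mean level, and for each member the 5 genes of highest Pearson r are named. The members, the lists and the rules were chosen with earlier results of these data known. Alternatives were quantile normalization, median centring, the floor, other filters, plain eBayes, 1 fit of all 15 arrays, the replicate number and the bioC set as blocks, and leaving out each array. Differences of group means within a bioC set, made without a fit, and fits without CLV3n 1 and CLV3p 1 were added after seeing the data.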

Additional observations from a re-analysis of the deposited data

How the results depend on the processing

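Of 166 recomputed differences of YUC4 and SHI, 155 moved by less than 1 residual SD, and 1 changed sign. Some of these settings could not move a difference, so the share is no measure of stability. No signal of either gene lies under the floor, so raising signals to it changes nothing. The replicate block cannot move a difference between groups that hold the same replicate numbers. Of 150 recomputed counts 135 stayed within 1.5 times. Within the lower bioC set the differences between CLV3p and CLV3n were 0.26 for YUC4 and 0.12 for SHI, and those between FILp and CLV3n were -2.64 and -0.28, the change of sign. For SHI, WUSp minus CLV3n was -1.29 after quantile normalization. Leaving out 1 array at a time gave SHI ranges of 2.02 to 3.01 for CLV3p against WUSp, -2.29 to -1.31 for WUSp against CLV3n and -2.54 to -1.55 for WUSp against FILp, set by the 2 WUSp arrays. With the filter at the 60th percentile, which tests fewer genes, 4 auxin genes were lower against CLV3n and 5 against FILp. Leaving out 1 array gave 2 to 5 auxin genes lower and 1628 to 3760 probe sets called for CLV3p against WUSp, and 0 to 1 and 1576 to 3331 for Protoplast Induced against Uninduced. In that pair 1 auxin gene was lower with centred arrays, with plain eBayes or with the replicate block, and 1972 probe sets were called by plain eBayes and 727 in 1 fit of all 15 arrays, against 3052 as reported. The cause of these changes was not tested.

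Same-numbered arrays of CLV3p, CLV3n, FILp and WUSp correlated at -0.09 to 0.32 in their deviations from group means, not all over 0.1, so the numbers were not taken to pair the arrays. Between CLV3n and CLV3p the same-number values were 0.32, 0.04 and 0.32 and arrays 1 against 3 had -0.30 and -0.31, so each array correlated best with its own number there, a hint from the data and not from the design. Deviations within a group sum to 0, so the negative values follow in part from the positive ones. CLV3n 1 and CLV3p 1 also shared the highest actin ratios, and CLV3n 3 and CLV3p 3 the lower bioC set. Whether these bear on the correlations was not tested. With the replicate block 2283, 3600, 3619 and 3654 probe sets were called against CLV3n, FILp, WUSp and Uninduced, and 9, 9, 4 and 1 auxin genes were lower.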
